A study of Mus musculus with 3 samples.

Results

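The miR-15/16 family is a group of microRNAs (miRNAs) that begin with the same bases and are expected to recognise overlapping sets of messenger RNAs. Its members here were the 4 array probes named hsa-miR-15a, hsa-miR-15b, hsa-miR-16 and hsa-miR-195, without probes that carry a deliberate mismatch. They were taken from 276 probes whose human miRNA name also belongs to an annotated mouse miRNA gene. The members were chosen by name, and all 4 were detected on every array. The series profiled T cells of the CD4+CD8+ (double-positive) type from mice with the genetic background Balb/c, using 2-colour Exiqon miRCURY LNA arrays, which carry capture probes with locked nucleic acid bases. The ICN1 tumor sample came from malignant CD4+CD8+ cells that express ICN1, the cleaved intracellular form of the NOTCH1 receptor, which signals without ligand. The non-malignant ICN1 sample came from CD4+CD8+ cells that express ICN1 without being a tumor. The control sample came from normal CD4+CD8+ thymocytes, the double-positive stage of T-cell development in the thymus. Each group had 1 array. Trizol-purified total RNA of the sample carried the dye Hy3, and every array was co-hybridised with 1 common pool, made from equal amounts of all 3 RNAs and carrying the dye Hy5. The sample labels, which alone were used for the design, give no age, time after ICN1 expression, promoter or vector of ICN1, or number of animals, and any such difference goes with the groups.

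As background, a miRNA guides an Argonaute protein to messenger RNAs that pair with its seed, and lowers their stability and translation. In human cells miR-15a, miR-15b, miR-16 and miR-195 are known to repress the survival gene BCL2 and several cyclins of the G1 phase, and miR-15a and miR-16 are the miRNAs of the DLEU2 locus that is often deleted in chronic lymphocytic leukaemia. Activated NOTCH1 is a common driver of T-cell acute lymphoblastic leukaemia, the disease named in the title of the series.

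The mouse sequences are shown because all 4 members carry one seed, which bears on what each probe can tell apart. All 4 members matched a mature mouse miRNA in the RefSeq table of build GRCm38.p6. Capitals mark the seed, bases 2 to 8 from the 5′ end.
miR-15a-5p: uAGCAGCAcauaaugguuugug
miR-15b-5p: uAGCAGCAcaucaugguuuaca
miR-16-5p: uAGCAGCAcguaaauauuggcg
miR-195a-5p: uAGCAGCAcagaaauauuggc
The first 9 bases were identical in all 4. miR-15a-5p and miR-15b-5p differed at 4 of 22 aligned positions, and miR-16-5p and miR-195a-5p at 2 of 21. miR-15b-5p and miR-16-5p differed at 8 of 22 positions, and miR-15a-5p and miR-16-5p at 6 of 22. The seed AGCAGCA occurred in 10 of the 1679 mature mouse miRNAs of the table.

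Mature miR-15b-5p lies at chr3:69009775-69009796 on the plus strand, and one copy of miR-16-5p (gene Mir16-2) follows at chr3:69009918-69009939, with 121 bases between them. Both genes lie within Smc4, a protein-coding gene for a condensin subunit. The other copy of miR-16-5p (gene Mir16-1) lies at chr14:61631936-61631957 on the minus strand, and miR-15a-5p lies at chr14:61632075-61632096 on the same strand, with 117 bases between them. These genes lie within Dleu2, a long non-coding RNA gene. miR-195a-5p lies at chr11:70235062-70235082 on the plus strand, 310 bases from miR-497a-5p, in no annotated host gene. The hairpins of the miR-16 genes are shown because they differ outside the mature miRNA, which capitals mark.
Mir16-1: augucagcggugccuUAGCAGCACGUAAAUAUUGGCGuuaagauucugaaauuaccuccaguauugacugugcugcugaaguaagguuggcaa
Mir16-2: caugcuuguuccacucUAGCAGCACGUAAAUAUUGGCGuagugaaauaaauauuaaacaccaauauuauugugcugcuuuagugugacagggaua
A probe for the mature miRNA reads the product of both genes, so the signal of miR-16 below cannot be divided between the Smc4 and the Dleu2 locus.

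Each array held 6720 spots, and each member had 4 replicate spots, all of them unflagged, unsaturated and above background in the Hy3 channel. Of the 276 mouse-named probes, detection was reached by 168 in ICN1 tumor cells, by 155 in the non-malignant ICN1 sample and by 166 in control thymocytes. A level below is the net signal of a spot, its signal mean minus the median background around it, in intensity units of the scanner. It depends on the probe as well as on the miRNA, so the levels of different miRNAs are not compared. It is also not corrected for differences in brightness between whole arrays. A difference is the log2 ratio of sample to pool on one array, after normexp background correction with an offset of 50 and loess normalization within the array, minus the same ratio on another array. With 1 array per group the differences have no replicate check and no test between groups was possible, so the precision is limited by how few arrays there are. The error given with a difference is the standard error over replicate spots. It leaves out the spread between animals or cultures. The 3 comparisons share their arrays, so they are not independent of one another.

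The comparison of ICN1 tumor cells with control thymocytes asked how malignant cells differ from normal cells of the same surface phenotype. The ratio of every member was lower in ICN1 tumor cells than in control thymocytes, and 2 of the 4, miR-16 and miR-15b, were lower by 2-fold or more. Among all 177 mouse-named probes detected in either sample, 14.7% were lower by 2-fold or more and 65.5% were below 0. The median difference of the 4 members was -1.51, and that of all 177 probes was -0.11. miR-16 and miR-15b ranked 4 and 5 from the lowest among these 177 differences, while miR-15a ranked 27 and miR-195 ranked 45.

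miR-16 gave net Hy3 signals of 895, 872, 843 and 825 at its spots in ICN1 tumor cells. In non-malignant ICN1 cells its spots gave 4564, 4148, 3962 and 4060. In control thymocytes they gave 6493, 6545, 6520 and 6505. The 3 arrays did not overlap at any spot, with the tumor sample lowest and the control sample highest. The mean net signal was thus 7.59-fold lower in ICN1 tumor cells than in control thymocytes before any use of the pool.

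The pool signal at the miR-16 probe was not equal across the arrays. Its mean net Hy5 signal was 2282 ± 66.9 on the ICN1 tumor array, 3233 ± 222 on the non-malignant ICN1 array and 3517 ± 25.9 on the control array (SD over 4 spots). After centring, the pool difference at this probe was -0.49 log2 units (tumor array minus control array), while 95% of the 177 probes lay within 0.80. The normalized log2 ratio of miR-16 to the pool was -1.05, -1.07, -1.07 and -1.08 at the tumor spots, 0.56, 0.56, 0.58 and 0.57 at the non-malignant spots, and 1.02, 1.02, 1.001 and 1.02 at the control spots. The difference between ICN1 tumor cells and control thymocytes was -2.08 ± 0.0069, a 4.23-fold lower ratio. With the Hy3 channel alone, which leaves the pool out, it was -2.59.

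miR-15b, the neighbour of Mir16-2 within Smc4, gave net Hy3 signals of 799, 822, 793 and 752 in ICN1 tumor cells. The spots gave 3016, 2944, 2755 and 2510 in non-malignant ICN1 cells, and 4262, 4288, 4375 and 4201 in control thymocytes. Its order of samples was that of miR-16, again with no overlap between arrays. The pool signal of miR-15b was closer to equal, at 2577 ± 114 (tumor array), 2594 ± 177 (non-malignant array) and 2841 ± 44.8 (control array). The difference between ICN1 tumor cells and control thymocytes was -2.06 ± 0.0075, a 4.16-fold lower ratio.

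**Figure D1:**
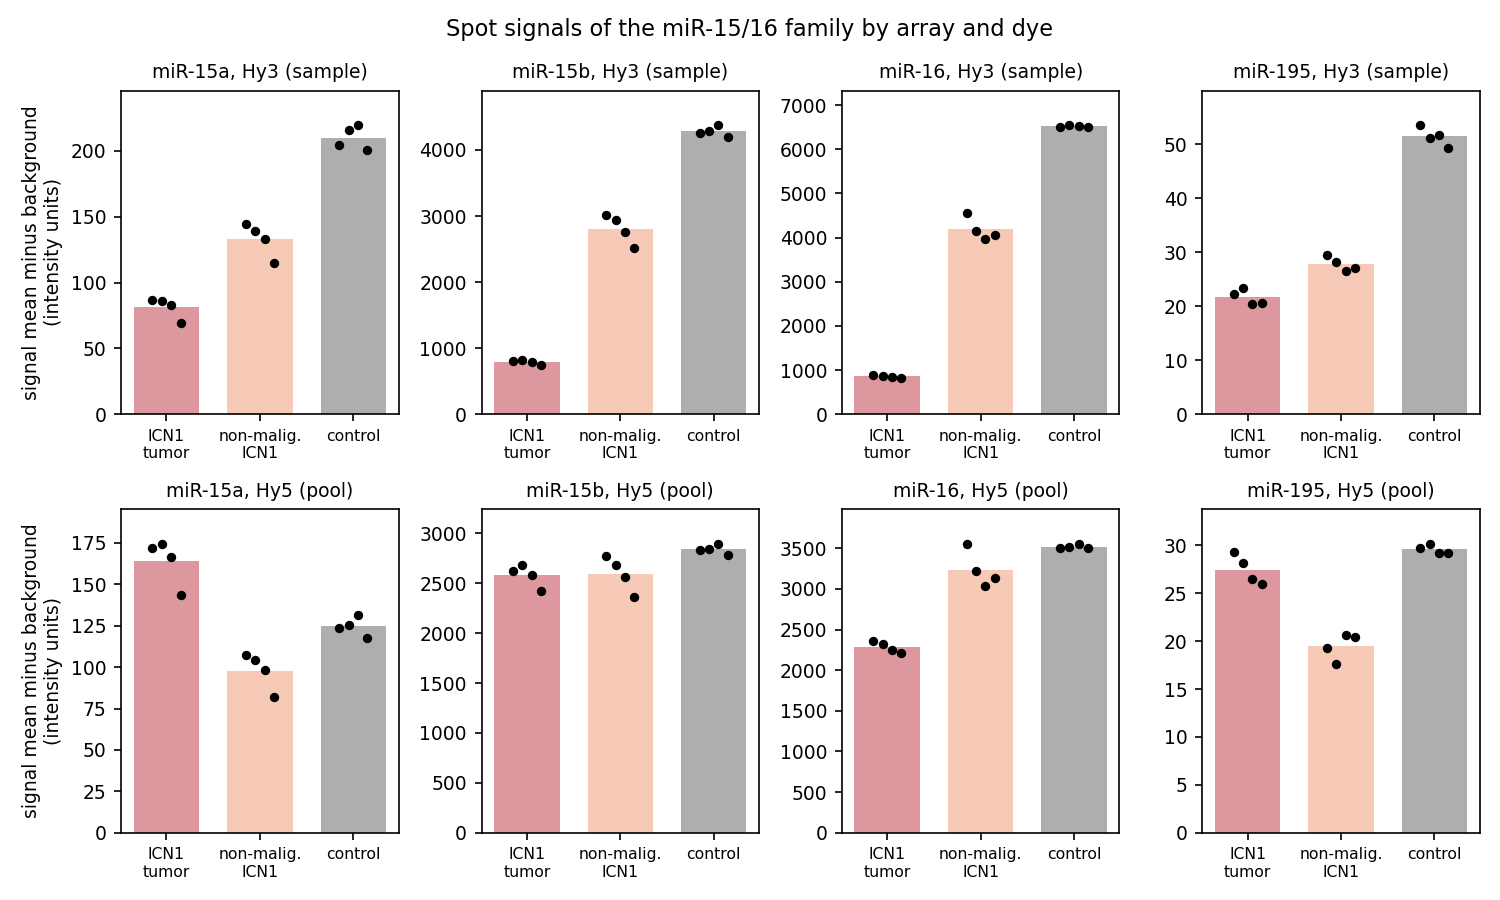
Net signal (signal mean minus background, intensity units, linear axis from 0) of each member by array, for the sample in Hy3 (upper row) and the common pool in Hy5 (lower row); bars are means and points are the 4 replicate spots. In Hy3 every member was lowest in ICN1 tumor cells and highest in control thymocytes, while in Hy5 the pool signal of miR-16 was lower on the tumor array (2282) than on the control array (3517) and that of miR-15a was higher (164 against 125).

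miR-15a, the partner of Mir16-1 within Dleu2, had dim spots. Its net Hy3 signals were 86.4, 86.3, 82.8 and 69.1 in ICN1 tumor cells, 145, 139, 133 and 115 in non-malignant ICN1 cells, and 204, 216, 220 and 201 in control thymocytes. The arrays did not overlap, and the tumor spots were the lowest. The mean was 7.99 background standard deviations in ICN1 tumor cells and 17.8 in control thymocytes. The difference between ICN1 tumor cells and control thymocytes was -0.97 ± 0.013, a 1.96-fold lower ratio just short of the 2-fold size rule. Without the pool, the net signal was 2.59-fold lower, while the Hy3 channel alone, after normexp and centring on mouse-named probes, gave a difference of -0.73. Uncorrected net signals were also lower in ICN1 tumor cells for miR-107 (2.26-fold), miR-103 (1.90-fold) and miR-503 (1.30-fold), described below, so the 2.59-fold is not particular to the family.

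miR-195, which comes from a separate gene on chromosome 11, had spots close to background. Its spots gave net Hy3 signals of 22.3, 23.3, 20.3 and 20.5 in ICN1 tumor cells. They gave 29.5, 28.1, 26.5 and 27.1 in non-malignant ICN1 cells, and 53.5, 51.1, 51.7 and 49.3 in control thymocytes. The means were 2.28, 2.49 and 4.88 background standard deviations in the same order of samples, so in both ICN1 samples the probe stood just above the detection limit of 2. The order of samples was the same as for the other members. The difference between ICN1 tumor cells and control thymocytes was -0.58 ± 0.020, a 1.49-fold lower ratio. The offset of 50 exceeds the net signal of this probe in both ICN1 samples and draws its ratios toward 0. With an offset of 10 the difference was -0.998. It was smaller than reported in other settings: -0.46 without normalization, -0.37 with median centring and -0.30 with the Hy3 channel alone. Centring on spike-in control probes gave -0.38. Its size thus depended on the setting in both directions.

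**Figure D2:**
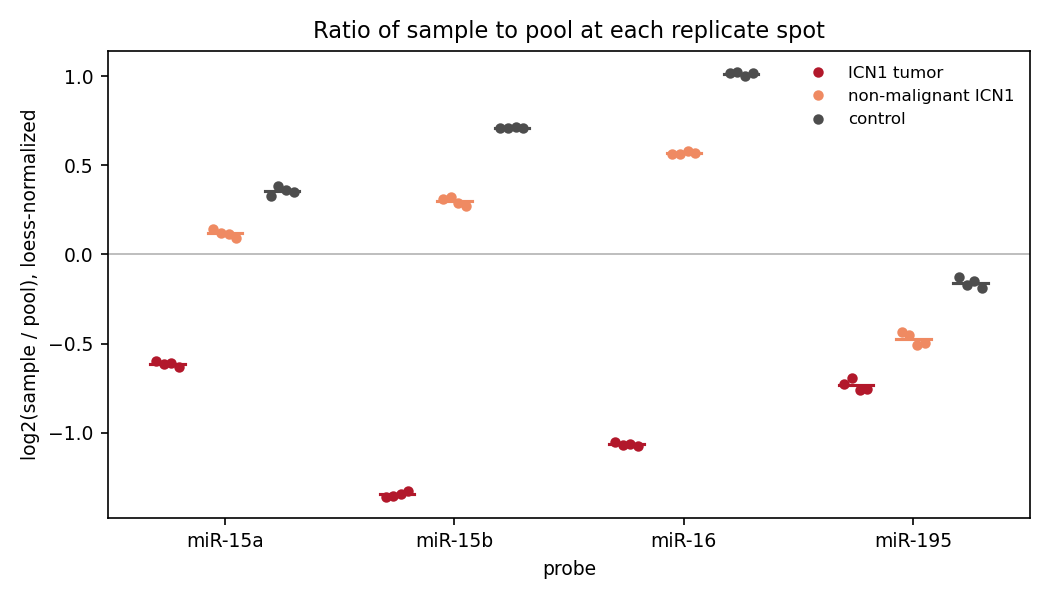
Loess-normalized log2 ratio of sample to pool (vertical axis) at each of the 4 replicate spots of each member, with 1 colour per array and a short line at the mean. The spots of the 3 arrays do not overlap for any member, and the gap between ICN1 tumor and control is wider for miR-16 and miR-15b (-2.08 and -2.06) than for miR-15a (-0.97) and miR-195 (-0.58).

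The differences between ICN1 tumor cells and control thymocytes were alike for miR-15b and miR-16, which differed from each other by 0.024 ± 0.010 (miR-15b minus miR-16). They were unlike for the members that share the Dleu2 locus. The difference of miR-15a lay 1.11 ± 0.015 above that of miR-16 and 1.09 ± 0.015 above that of miR-15b. miR-16 lay 1.51 ± 0.021 below miR-195, although their mature sequences differ at 2 positions only. These errors again cover spots alone. Both dim members had the smaller differences. With plain background subtraction, no offset and no normalization, the differences were -2.30 for miR-16, -2.29 for miR-15b, -1.77 for miR-15a and -1.14 for miR-195, so that all 4 members passed 2-fold, but so did 42.4% of the 125 probes measurable in that setting. Relative to the median of those probes (-0.70) they were -1.60, -1.59, -1.07 and -0.45 in the same order.

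Compared with non-malignant ICN1 cells, which express ICN1 but are not malignant, ICN1 tumor cells again had a lower ratio of each member. miR-15b differed by -1.64 ± 0.014 (3.13-fold lower) and miR-16 by -1.64 ± 0.0059 (3.11-fold lower), so 2 of 4 members passed 2-fold. Among the 174 mouse-named probes detected in either sample, 9.77% did so, and 69.5% were below 0. miR-15a differed by -0.73 ± 0.012 and miR-195 by -0.26 ± 0.024, which left both short of 2-fold. The median of the 4 members was -1.18, and that of all 174 probes was -0.085. The difference of miR-15b lay within the spot error of that of miR-16 (-0.0098 ± 0.015, miR-15b minus miR-16). In the net Hy3 signal alone, miR-16 was 4.87-fold, miR-15b 3.55-fold, miR-15a 1.64-fold and miR-195 1.29-fold lower in ICN1 tumor cells than in non-malignant ICN1 cells. The Hy3 channel alone, after normexp and centring, gave -2.08, -1.62, -0.36 and -0.073 in the same order. For the last 2 members the pool was brighter on the tumor array. Its net signal was 164 against 97.8 for miR-15a and 27.5 against 19.5 for miR-195.

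The comparison of non-malignant ICN1 cells with control thymocytes asked what differed in ICN1-expressing cells that had not become malignant. All 4 members lay below 0. Under plain background subtraction they did so without normalization (miR-15a at -0.31 and miR-195 at -0.28), while centring on the median of bright probes, which moves every probe alike, put these 2 above 0 (0.050 and 0.077). Relative to the median of all probes in that setting they were at -0.12 and -0.092. None of the 4 reached 2-fold, against 1.8% of 167 detected probes that were lower and 4.19% that were higher by that size (3 and 7 probes, or 1 and 7 with loess on mouse-named probes). The background share below 0 was 57.5%. miR-16 differed by -0.45 ± 0.0062, miR-15b by -0.41 ± 0.012, miR-195 by -0.31 ± 0.022 and miR-15a by -0.24 ± 0.015. With loess on mouse-named probes these differences were -0.098, -0.083, -0.22 and -0.14. The median was -0.36 for the members and -0.022 for all probes. Net Hy3 signals were 1.56-fold lower for miR-16, 1.53-fold lower for miR-15b, 1.58-fold lower for miR-15a and 1.85-fold lower for miR-195 in non-malignant ICN1 cells than in control thymocytes. For comparison, 95% of the 167 probes differed by less than 0.26 in the pool channel between these 2 arrays, and the pool differences of the members ran from -0.16 for miR-15a to -0.062 for miR-195.

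**Figure D3:**
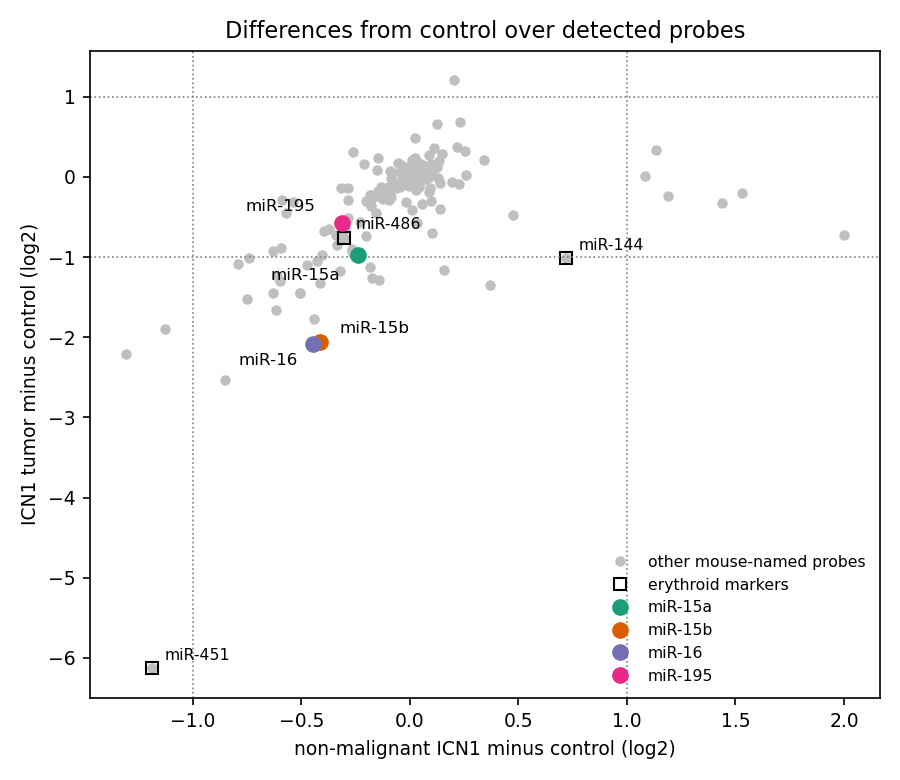
Log2 difference from control thymocytes of ICN1 tumor cells (vertical axis) and of non-malignant ICN1 cells (horizontal axis) for mouse-named probes detected in these comparisons, with dotted lines at 2-fold. miR-15b and miR-16 lie together near -2.06 and -2.08 on the vertical axis, apart from miR-15a and miR-195, and the erythroid miR-451 lies lowest at -6.13.

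The mismatch probes of the members show how much of a signal survives a change in the capture probe, although the place of the mismatch is not given in the sources used here. For miR-16, the probe named MM1 kept 25.9% of the perfect-match net Hy3 signal in ICN1 tumor cells, 13.8% in the non-malignant ICN1 sample and 14.3% in control thymocytes. One of the probes named MM2 kept 28.6%, 15.3% and 15.9% in the same samples, and the other MM2 probes were not detected on any array. Between ICN1 tumor cells and control thymocytes the detected mismatch probes differed by -1.79 ± 0.011 for MM1 and -1.81 ± 0.014 for MM2, smaller than the -2.08 of the perfect match.

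For miR-15b, one mismatch probe kept 9.41% in ICN1 tumor cells, 6.70% in the non-malignant ICN1 sample and 6.85% in control thymocytes, and differed by -1.38 ± 0.024 between ICN1 tumor cells and control thymocytes. The other kept 3.13%, 0.956% and 0.964%, and differed by -0.28 ± 0.048. The miR-15a mismatch probe kept 37.2%, 24.8% and 19.3% and differed by -0.19 ± 0.034 between ICN1 tumor cells and control thymocytes. For each of these probes the retained share was higher in ICN1 tumor cells than in control thymocytes. The miR-15b probe with the lower shares and the miR-15a probe were dim. The former gave net Hy3 signals of 24.8 (ICN1 tumor), 26.8 (non-malignant ICN1) and 41.3 (control). The latter gave 30.2, 33.0 and 40.7 in the same samples. The offset exceeds these signals and draws their ratios toward 0. Their shares and differences thus do not show how specific the perfect-match probes are. miR-195 had no mismatch probe. The part of related family members in the signals of miR-15a and miR-195 was not tested.

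Other probes for miRNAs with the same, a similar or a shifted seed differed by less than 2-fold in all 3 comparisons. The probes of miR-424 and miR-497 were close to background, which limits what their ratios can show. The mouse sequences are printed to show how close their seeds are, again in capitals.
miR-322-5p: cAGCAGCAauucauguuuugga
miR-497a-5p: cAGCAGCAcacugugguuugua
miR-503-5p: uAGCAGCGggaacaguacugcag
miR-103-3p: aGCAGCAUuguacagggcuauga
miR-107-3p: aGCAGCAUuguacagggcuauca
miR-322 is the mouse counterpart of human miR-424, and no probe was named mmu-miR-322. The human-named miR-424 probe gave net Hy3 signals of 26.1 in ICN1 tumor cells, 23.2 in the non-malignant ICN1 sample and 27.1 in control thymocytes. Its difference between ICN1 tumor cells and control thymocytes was 0.0060 ± 0.014. The normalized ratios of the spots overlapped between these samples, while the net Hy3 signals did not. miR-497, the chromosome 11 neighbour of miR-195, gave 29.6, 18.6 and 24.1 in the same samples and was not detected in non-malignant ICN1 cells. Its difference between ICN1 tumor cells and control thymocytes was 0.16 ± 0.11.

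miR-503, whose seed differs in its last base and whose gene lies next to that of miR-322 on chromosome X, was far above background at 1460 ± 84.5 in ICN1 tumor cells, 1724 ± 157 in the non-malignant ICN1 sample and 1905 ± 60.4 in control thymocytes (net Hy3 signal, SD over 4 spots). Its ratio differed by 0.18 ± 0.015 between ICN1 tumor cells and control thymocytes, while its net Hy3 signal was lower in ICN1 tumor cells. miR-103 and miR-107 are known regulators of metabolic genes that share a stretch of the seed moved by 1 base. Between ICN1 tumor cells and control thymocytes miR-103 differed by -0.34 ± 0.011 and miR-107 by -0.41 ± 0.015. Neither reached 2-fold. No probe with a human miRNA name for the opposite strand of a member or of miR-424 or miR-497 was on the array. Probes with other names were not searched for these strands.

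The probes most like each member were found by the distance between their pairs of differences from control, over 162 mouse-named probes and the 3 arrays. miR-15b and miR-16 were each other's nearest probe, at a distance of 0.042 log2 units. Next came miR-142-5p, a miRNA of the blood lineages, at 0.28 from miR-15b and 0.31 from miR-16, and then miR-24 at 0.44 and 0.45. miR-15a lay nearest to miR-30a-5p (0.023), let-7c (0.057) and let-7b (0.071). miR-195 lay nearest to miR-181b (0.066), miR-19b (0.069) and miR-30e-5p (0.083). No member of the family was thus among the 3 nearest of miR-15a or of miR-195.

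Marker miRNAs of cell types differed between the samples to unlike degrees. The markers listed for thymocytes, miR-181a, miR-181b, miR-142-3p and miR-142-5p, were detected on all arrays, with summed net Hy3 signals of 7615 in ICN1 tumor cells, 17074 in the non-malignant ICN1 sample and 21781 in control thymocytes. The miR-142 arms, which are made throughout the blood lineages and are not particular to thymocytes, gave 97.9%, 98.6% and 98.1% of these sums, and the miR-181 probes summed to 159, 231 and 409. The 4 differences between ICN1 tumor cells and control thymocytes ran from -1.78 for miR-142-5p to -0.64 for miR-181b. The erythroid markers miR-451, miR-144 and miR-486 were also detected on all arrays and summed to 642, 11753 and 24002 in the same samples. miR-451 gave 505, 11409 and 23628 of these sums, or 78.7%, 97.1% and 98.4%. Because net signal depends on the probe, the shares in both lists show which probes dominate a sum. They do not measure proportions of miRNAs or of cells.

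miR-451, a miRNA abundant in red blood cells, differed by -6.13 ± 0.0074 between ICN1 tumor cells and control thymocytes and by -1.19 ± 0.0085 between non-malignant ICN1 cells and control thymocytes. miR-144, which shares a primary transcript with it, differed by -1.02 ± 0.020 in the first of these and by 0.72 ± 0.020 in the second. miR-486 differed by -0.76 ± 0.019 and -0.31 ± 0.016. Between ICN1 tumor and non-malignant ICN1 cells the differences were -4.94 ± 0.0067 for miR-451, -1.74 ± 0.0068 for miR-144 and -0.45 ± 0.011 for miR-486. The net pool signal at the miR-451 probe was 20886 on the tumor array and 11379 on the control array. After centring this was a pool difference of 0.99, beyond the 0.80 that held 95% of probes. The net Hy3 signal of miR-451 was 46.7-fold lower in ICN1 tumor cells than in control thymocytes. miR-16 and miR-15b are also found in red blood cells, and the part of erythroid RNA in their differences was not tested. In these bulk samples, fewer cells of a type and less RNA per cell cannot be told apart.

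The myeloid miR-223 was detected on all arrays, at 65.1 in ICN1 tumor cells, 366 in the non-malignant ICN1 sample and 164 in control thymocytes. It differed by -0.24 ± 0.019 between ICN1 tumor cells and control thymocytes and by 1.19 ± 0.021 between non-malignant ICN1 cells and control thymocytes, opposite in the second to the members. Between ICN1 tumor and non-malignant ICN1 cells it differed by -1.43 ± 0.027, in the same direction as the members. The mature-lymphocyte miR-150 was at 18.7, where it was not detected, and at 24.8 and 44.4. Its differences from control thymocytes were -0.20 ± 0.049 (ICN1 tumor cells) and -0.12 ± 0.020 (non-malignant ICN1 cells). Of the stromal markers miR-143, miR-145, miR-199a and miR-126, 1 of 4 was detected, miR-145, at 26.7, 23.9 and 28.3. Its differences from control thymocytes were -0.0047 ± 0.024 and -0.011 ± 0.038 in the same order. The net pool signal at the miR-145 probe was -9.01, -14.7 and -10.4 on the tumor, non-malignant and control arrays. With signals this low and an offset of 50, these differences do not show whether stromal RNA was equal. The summed signals of the 4 stromal probes, 30.9, 17.3 and 49.97, include the 3 undetected probes and have no order.

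The size of the family's difference depended on which probes set the normalization, as the plot of settings shows. The reported curve was fitted mostly on probes that are not mouse-named (276 mouse-named, 175 with other human names and 899 remaining probes). With the loess curve fitted on mouse-named probes only, ICN1 tumor cells differed from control thymocytes by -1.21 for miR-16, -1.20 for miR-15b, -0.57 for miR-15a and -0.39 for miR-195. miR-16 and miR-15b remained 2-fold lower. In that setting 9 probes of 177 were lower and 6 higher by 2-fold, against 26 lower and 1 higher as reported, and the median of all probes moved by 0.16. Relative to the median of all probes, the family median was -0.93 in that setting and -1.40 as reported. The 10 spike-in control probes had a median difference of 0.10 between the ICN1 tumor and the control array, and with centring on them miR-16 differed by -2.15 and miR-15b by -2.13.

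**Figure D4:**
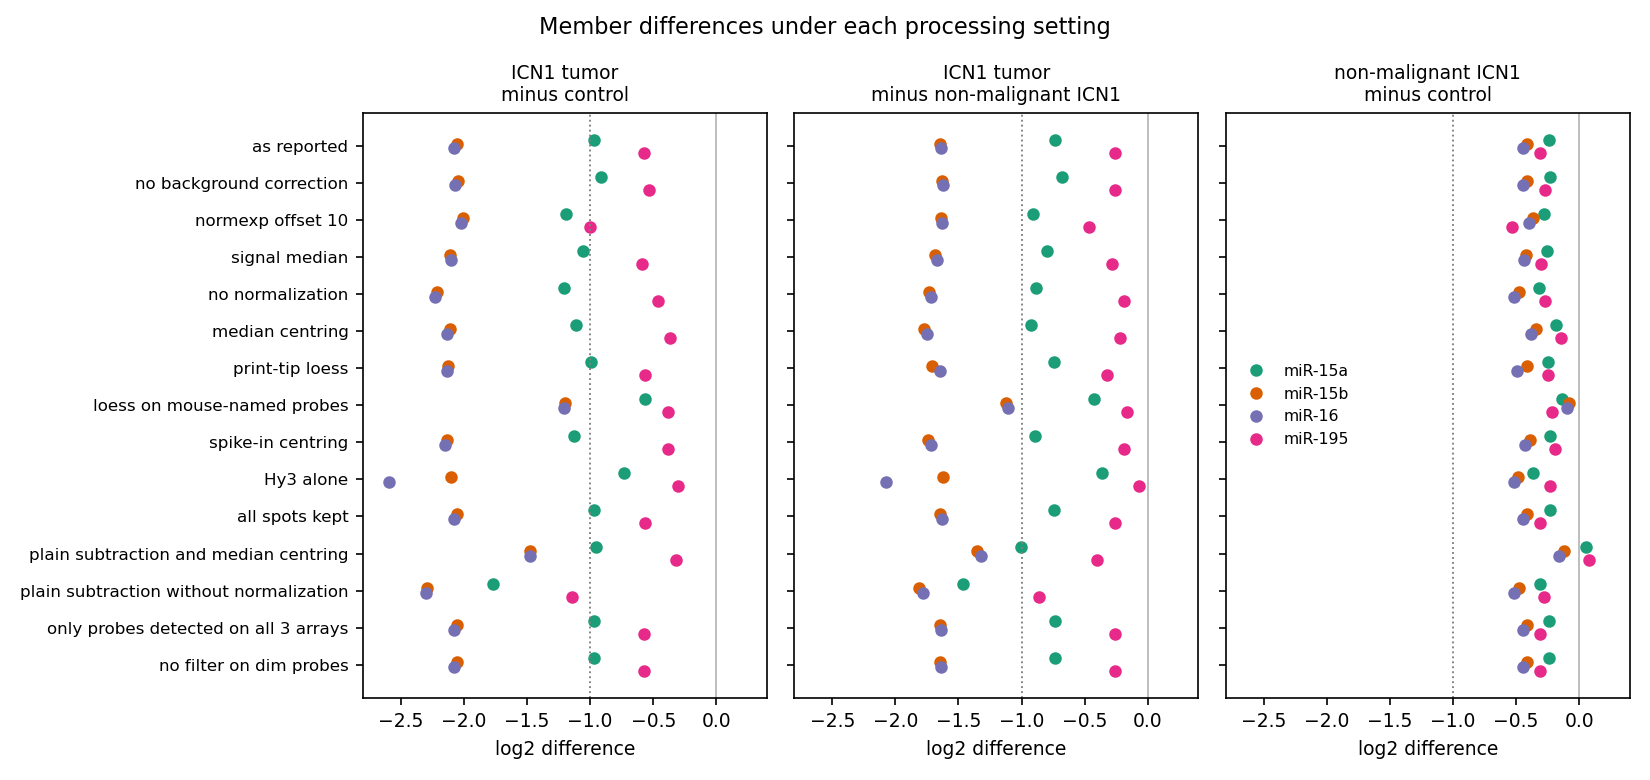
Log2 difference of each member (horizontal axis) in the 3 comparisons, under the reported processing and 14 other settings (rows), with a dotted line at 2-fold lower and a grey line at 0. The rows that only change the detection filter repeat the reported values, since every member was detected on every array. miR-15b and miR-16 stay left of the 2-fold line in both comparisons of ICN1 tumor cells under every setting drawn, and miR-15a and miR-195 lie right of 0 in non-malignant ICN1 cells minus control under plain subtraction with median centring (0.050 and 0.077) but not under plain subtraction without normalization.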

How the data were processed

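miRNAs were measured in 3 mouse samples, 1 array each. For every spot and dye, the deposited scanner tables hold linear intensity values before normalization, per the file headers: mean and median of the signal, and median and standard deviation of the local background. Each spot also has a quality flag, a score from the authors' image software, per the file headers. Its name is not given in the sources used here. Another deposited table, of processed values that look like log2 values made by the authors, was not used, since 1 of its 345 row numbers occurred among the probes.

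Spots with flag 3 were left out. The background median was removed from the signal mean by normexp (offset 50). The resulting log2(Hy3/Hy5) was normalized by global loess (span 0.3, 4 iterations) with control, spike-in and mismatch spots left out of the curve (limma 3.58.1, R 4.3.3), then averaged over spots. The curve was thus fitted on the spots of 276 mouse-named probes, 175 probes with other human miRNA names and 899 remaining probes. The procedure was tested on simulated data, where known changes were read only at mouse-named probes brighter in the pool channel than miR-15a and miR-195. The test therefore did not cover these dim members. A probe was detected where at least 0.5 of its usable spots exceeded, in Hy3, the local background median by more than 2 of its standard deviations, and entered a comparison if detected on 1 of its arrays. Further steps ran in Python 3.11.15 with numpy 2.4.6, pandas 2.3.3 and, for plots, matplotlib 3.10.9. Names were matched to RefSeq genes of GRCm38.p6. No capture sequence was compared with the mouse miRNAs.

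The samples are labelled as separate cell populations, and no fit between groups was possible, so no p-value is given and size was read at 2-fold. Named were the 4 members, relatives and near-seed miRNAs, opposite strands, mismatch probes, the 3 nearest probes to each member, and cell type markers. Ranks and the settings plot were added after values were seen. The members and lists were chosen with earlier results of these data known.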

Additional observations from a re-analysis of the deposited data

How the results depend on the processing

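Directions and 2-fold counts were recomputed under 14 other settings, of which plain background subtraction, with median centring or without normalization, was chosen after seeing the data. Settings that kept only probes detected on every array, or all probes whether detected or not, could change counts over all probes only. For the members, which were detected on every array, they repeat the reported values and are no check. For ICN1 tumor cells against control thymocytes the family median, -1.51 as reported, was -1.48 without background correction, -1.60 with an offset of 10, -1.58 from signal medians, -1.71 without normalization, -1.61 with median centring, -1.56 with print-tip loess, -0.89 with loess on mouse-named probes, -1.63 with spike-in centring, -1.42 with Hy3 alone, -1.21 with plain subtraction and centring and -2.03 with plain subtraction alone. For ICN1 tumor against non-malignant ICN1 cells the same settings gave -1.15, -1.27, -1.23, -1.30, -1.34, -1.20, -0.77, -1.31, -0.99, -1.16 and -1.62, against -1.18. For non-malignant ICN1 cells against control thymocytes the median, -0.36, was -0.40 without normalization, -0.26 with median centring, -0.33 with print-tip loess, -0.12 with loess on mouse-named probes, -0.31 with spike-in centring, -0.42 with Hy3 alone, -0.035 with plain subtraction and centring and -0.39 with plain subtraction alone. In that comparison the centring constant, the same for every probe, put miR-15a (0.050) and miR-195 (0.077) above 0, while the family median lay at -0.20 relative to all probes with or without centring. The cause of the other moves was not tested. All other member differences stayed below 0. In both tumor comparisons 2 or 3 members were 2-fold lower, miR-16 and miR-15b always among them, except that 4 were so against control with plain subtraction alone. miR-15a was 2-fold lower than in control in 6 of 14 settings and miR-195 in 1 (-1.14).

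Counts over all probes moved by over 1.5 times in some settings. For ICN1 tumor cells against control thymocytes 26 probes were 2-fold lower, against 9 with loess on mouse-named probes. The split of 26 lower and 1 higher became 20 and 22 with plain subtraction and centring and 53 and 8 with it alone, over 125 probes, and the median of all probes then moved by 0.24 and -0.59. For ICN1 tumor against non-malignant ICN1 cells 17 were lower, against 33 with Hy3 alone, and 17 lower and 1 higher became 12 and 3 with loess on mouse-named probes, 25 and 7 with plain subtraction and centring, and 41 and 6 with it alone. For non-malignant ICN1 cells against control thymocytes 3 lower and 7 higher became 1 and 7, 5 and 21, and 11 and 17 in those settings. Of higher probes, the 1 in each tumor comparison became 0 in some settings, and 2 with an offset of 10 against non-malignant cells. No paired analysis was possible because each group has 1 array and the labels give no replicate numbers. Signal near background limits miR-195.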
